A study of Mus musculus with 54 samples.

Results

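The genes described here are 10 members of the Wnt signalling pathway, Wnt5a, Wnt4, Wnt11, Fzd1, Fzd4, Ror2, Prickle1, Sfrp4, Sfrp1 and Axin2, out of 25149 genes in the expression tables. These 10 were chosen by symbol as ligands, receptors, inhibitors and readouts of the pathway, with earlier results of these data known. Their expression was measured by RNA-seq in 54 libraries, each made from a piece of the wall of a single mouse ovarian follicle. Secondary follicles of CD-1 female mice aged 14 to 16 days were grown in an alginate hydrogel for 8 days and then held for 12 h in maturation medium with or without hCG, an analog of luteinizing hormone that triggers ovulation. All groups shared the serum, EGF and recombinant FSH of that medium, and the design varied hCG and the side taken. Without hCG, follicles did not rupture, and the wall was cut into a putative unruptured side (n = 15) and a putative ruptured side (n = 14), predicted from the follicle's shape and brightness with the help of an image model. Post-hCG, the actual unruptured side (n = 12) was separated from the ruptured side (n = 13). The sample labels name cumulus-oocyte complex as the tissue, but that complex was discarded at dissection, according to the study's methods.

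Wnt proteins are secreted ligands that bind Frizzled receptors. In the canonical branch the bound receptor stabilises beta-catenin, which enters the nucleus and switches on target genes with TCF/LEF factors, and in the planar polarity branch receptors such as Ror2 and proteins of the Prickle and Vangl families organise cell shape and movement. In the ovary, Wnt4 is required for female gonad development, mice without Fzd4 do not form corpora lutea, and Sfrp4 is known as a gene that luteinizing hormone raises in granulosa cells.

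Library totals ran from 1497071 to 2834734 counts, so a gene at 1 CPM rested on only a few counts per library. Expression is given as TPM, which is scaled by gene length and can be compared between genes, or as CPM, which is scaled to library size by TMM but not by gene length and cannot. Differences are log2 fold changes (log2FC) from the quasi-likelihood F-test of edgeR, and its p-values were adjusted by the Benjamini-Hochberg method (FDR) over all genes that passed the expression filter, with an FDR under 0.05 counted as a call. The labels do not say whether libraries came from separate animals or which sides came from the same follicle, so FDR values measure the spread between these libraries only. By the well codes in the labels, the hCG libraries sat in other plate rows than the libraries without hCG, and on each part of the plate the sides filled separate runs of wells, with only 1 row in each medium shared by both sides, so neither hCG nor side can be told apart from plate position. Of 7 genes known to respond to hCG, all 6 tested rose on the unruptured side, against 25.4% of all genes. On the ruptured side 3 of 5 tested rose, against 29.7% of all genes. Summed oocyte markers exceeded 5 TPM in 5 libraries, with the highest sum of 158 TPM in a putative unruptured library, and were at a median of 0.2 TPM or less in each group. Of 4 cumulus markers, all 3 tested (Has2, Tnfaip6 and Btc) were higher on the putative ruptured side, against 8.84% of all genes. Their sum had a median of 10.1 TPM there (up to 105) and of 6.26 TPM on the putative unruptured side (up to 27.4). Post-hCG, 2 were tested and 0 differed between sides. The part of cumulus cells in the side differences was not tested.

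Of the 10 genes, between 5 and 8 passed the expression filter in each comparison. Without hCG, 7 were tested, of which Sfrp4 was higher and Wnt5a, Fzd1, Prickle1 and Axin2 were lower on the putative ruptured side, where 8.84% of all genes tested were higher and 8.96% lower. Post-hCG, 5 were tested, of which Fzd4 was higher and Wnt5a and Wnt4 were lower on the ruptured side, where 10% of all genes were higher and 11.3% lower. Between media on the unruptured side, 8 were tested, of which Wnt5a and Sfrp4 rose and Wnt4, Fzd1, Ror2, Prickle1 and Axin2 fell post-hCG, against 25.4% of all genes higher and 27.7% lower. On the ruptured side, 5 were tested, of which Wnt5a, Fzd4 and Sfrp4 rose and Wnt4 fell, against 29.7% higher and 30.4% lower. Each group entered both a side comparison and a media comparison, so these comparisons share libraries. Groups that differ in both side and medium were not compared. Ror2, Prickle1 and Axin2 passed the expression filter only in fits that held the putative unruptured libraries, where their counts were highest, so a lower value elsewhere was favoured by the filter, and the counts above are a description. The difference between the side effects post-hCG and without hCG could be tested for 8 genes and passed for Axin2 only, against 4.25% of all genes with a higher and 4.65% with a lower side difference post-hCG. The median log2FC of the genes tested was -1.02 without hCG and -0.40 post-hCG between sides, and -0.63 on the unruptured and 0.66 on the ruptured side between media, where the median over all genes lay between -0.03 and 0.01.

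**Figure D1:**
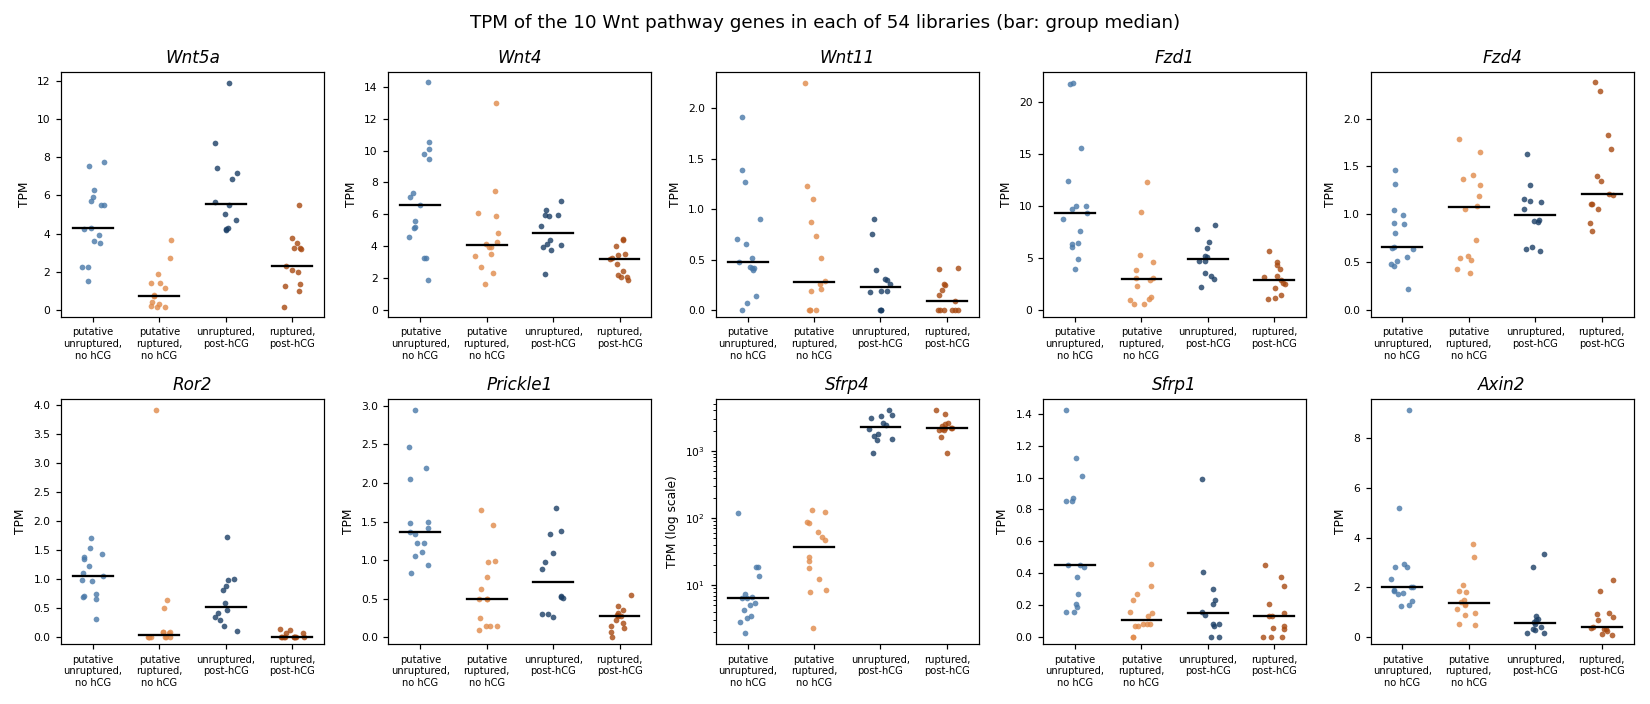
TPM of each of the 10 genes (y axis, log scale for Sfrp4 only) in every library of the 4 groups (x axis), where each point is a library and the bar is the group median. Of the 10 genes, only Sfrp4 did not overlap between media, at 929 to 4013 TPM post-hCG and up to 134 TPM without hCG.

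**Figure D2:**
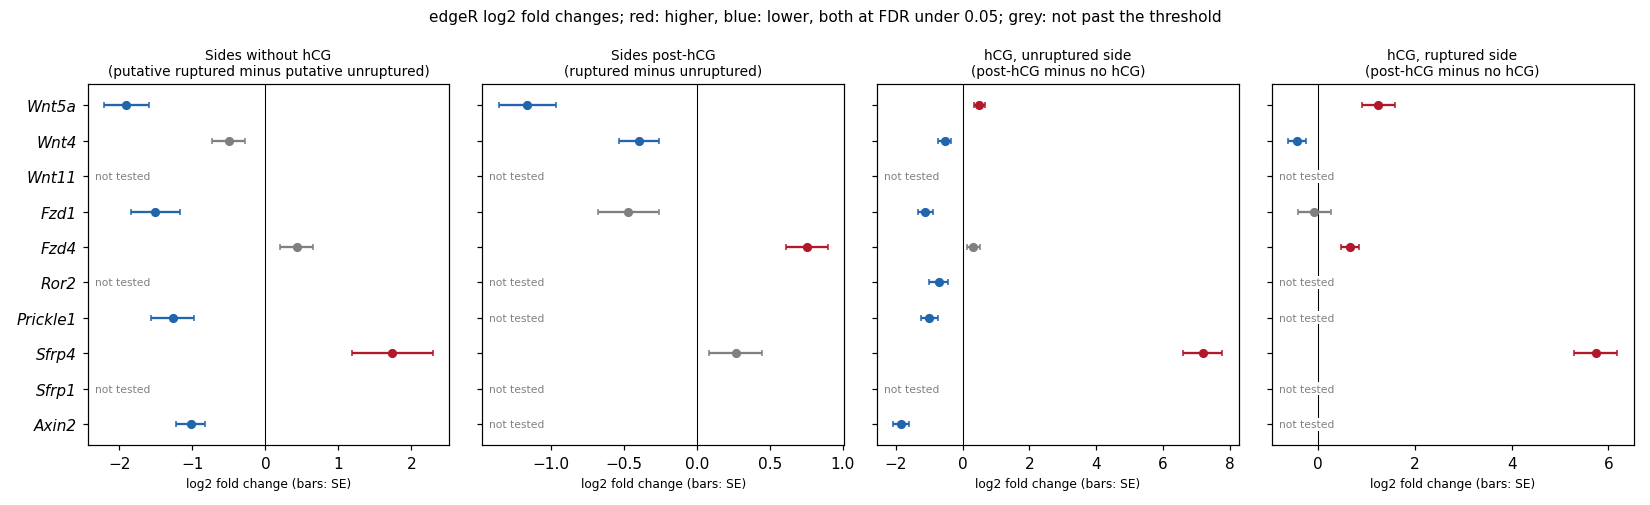
Log2 fold change of each gene (x axis, with its own scale in each panel) in the 4 comparisons of sides and media, with bars of 1 SE and genes that did not pass the expression filter given as not tested. Wnt5a was lower on the ruptured side in both media and higher post-hCG on both sides, and Sfrp4 rose by 7.20 (8.28 without putative unruptured replicate 12) and 5.73 on the log2 scale between media.

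Among the ligands, Wnt5a, which signals mainly through the branches that do not use beta-catenin, was lower on the ruptured side in both media. It lies on chromosome 14 from 28504750 to 28527448 (GRCm38, plus strand), within which the annotation places an antisense gene that the tables do not list, and the libraries do not mark strand. Its level was 1.52 to 7.75 TPM in putative unruptured libraries, with a median of 4.30, and 0.16 to 3.67 TPM in putative ruptured libraries, with a median of 0.745. All 14 putative ruptured libraries lay below the median of the putative unruptured side, and 11 lay below its lowest library. Wnt5a was 3.75-fold lower there, with a log2FC of -1.91 (SE 0.31, edgeR FDR = 4.57e-05). Post-hCG, the unruptured side held 4.16 to 11.87 TPM with a median of 5.56, and the ruptured side 0.18 to 5.47 TPM with a median of 2.30. Of the 13 ruptured libraries, 12 lay below every unruptured library, and the log2FC was -1.17 (SE 0.20, edgeR FDR = 4.84e-05).

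Wnt5a also rose between media. Post-hCG it was higher by a log2FC of 1.24 (SE 0.34, edgeR FDR = 0.00238) on the ruptured side, with 12 of 13 libraries above the median without hCG, and by 0.51 (SE 0.17, edgeR FDR = 0.0125) on the unruptured side, with 9 of 12 above it. The smaller rise did not pass with all 4 groups in the fit (FDR = 0.0609) or with library totals in place of TMM (log2FC 0.29, FDR = 0.170). The order of medians was unruptured post-hCG, putative unruptured, ruptured post-hCG and putative ruptured, and the middle pair was not compared. The side difference was 0.74 smaller in size post-hCG, which did not pass (SE 0.38, edgeR FDR = 0.233), with a 95% interval from -0.0056 to 1.48.

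Wnt4, a ligand that granulosa cells make, differed by less. It lies on chromosome 4 from 137277489 to 137299726 (plus strand). Its level was 1.85 to 14.3 TPM in putative unruptured libraries, with a median of 6.60, and 1.65 to 12.98 TPM in putative ruptured libraries, with a median of 4.055. Post-hCG it was 2.28 to 6.86 TPM with a median of 4.80 on the unruptured side, and 1.87 to 4.42 TPM with a median of 3.19 on the ruptured side. All 4 groups overlapped, and the medians fell in the order putative unruptured, unruptured, putative ruptured and ruptured. Between sides the log2FC was -0.50 without hCG (SE 0.23, edgeR FDR = 0.124) and -0.40 post-hCG (SE 0.14, edgeR FDR = 0.0335), where all 13 ruptured libraries lay below the median of the unruptured side. Post-hCG it was lower than without hCG, with a log2FC of -0.54 on the unruptured side (edgeR FDR = 0.0242) and of -0.43 on the ruptured side (edgeR FDR = 0.0471). These calls rested on single libraries. Leaving out unruptured replicate 2 gave an FDR of 0.0738 between sides post-hCG, leaving out putative unruptured replicate 11 an FDR of 0.0523 between media, and leaving out putative ruptured replicate 4 an FDR of 0.130 between media and of 0.0309 between sides without hCG.

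Wnt11, a ligand linked to cell movement, lies on chromosome 7 from 98835112 to 98855195 (plus strand) and was near the limit of detection. Its counts summed to 57 over the 15 putative unruptured libraries, 29 over the 14 putative ruptured, 15 over the 12 unruptured and 9 over the 13 ruptured libraries, and 1, 4, 3 and 6 libraries had none. The highest library in any group had 11 counts, and Wnt11 passed the filter in no comparison. In edgeR without the filter its log2FC between media was -1.20 on the unruptured side (SE 0.47, FDR = 0.0491), where 15.9% of all genes were lower, and between sides it was -0.45 without hCG (FDR = 0.583) and -0.67 post-hCG (FDR = 0.478). Of 19 Wnt ligands, only Wnt2, Wnt4, Wnt5a and Wnt6 had a mean of at least 1 TPM in the groups without hCG. The median share of Wnt5a in the summed TPM of the 19 was 17.8% in putative unruptured, 6.81% in putative ruptured, 30.5% in unruptured and 33.9% in ruptured libraries.

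Among the receptors, Fzd1 and Fzd4 moved in opposite directions between sides, Fzd1 in the medium without hCG and Fzd4 post-hCG. Fzd1, a Frizzled receptor on chromosome 5 from 4753839 to 4758035 (minus strand), was at 3.97 to 21.84 TPM in putative unruptured libraries, with a median of 9.29, and at 0.58 to 12.34 TPM in putative ruptured libraries, with a median of 2.975. Of the 14 putative ruptured libraries, 10 lay below every putative unruptured library, and the log2FC was -1.51 (SE 0.33, edgeR FDR = 0.0016). Post-hCG it was at 2.21 to 8.22 TPM with a median of 4.925 on the unruptured side and at 1.10 to 5.68 TPM with a median of 2.90 on the ruptured side. That side difference of -0.47 did not pass (SE 0.21, edgeR FDR = 0.109), although it did without ruptured replicate 5 (-0.58, FDR = 0.0445). Between media on the unruptured side, the log2FC of Fzd1 was -1.11 (SE 0.23, edgeR FDR = 0.00015), and all 12 libraries post-hCG lay below the median without hCG. On the ruptured side the change was -0.07 (SE 0.34, edgeR FDR = 0.860), with a 95% interval from -0.73 to 0.58, and it turned to 0.14 without putative ruptured replicate 4. The difference of the side effects, 1.04, did not pass (SE 0.42, edgeR FDR = 0.114).

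Fzd4, on chromosome 7 from 89404355 to 89413134 (plus strand), had a lower median TPM than Fzd1 in every group. It was at 0.22 to 1.46 TPM in putative unruptured libraries, with a median of 0.66, and at 0.39 to 1.79 TPM in putative ruptured libraries, with a median of 1.075, a log2FC of 0.43 that did not pass (SE 0.23, edgeR FDR = 0.197). Post-hCG it was at 0.62 to 1.63 TPM with a median of 0.995 on the unruptured side and at 0.83 to 2.38 TPM with a median of 1.21 on the ruptured side. Fzd4 was then 1.69-fold higher on the ruptured side, with a log2FC of 0.75 (SE 0.14, edgeR FDR = 0.000229) and 11 of 13 libraries above the median of the unruptured side. Between media it rose on the ruptured side by 0.66 (SE 0.19, edgeR FDR = 0.00414), and the change of 0.32 on the unruptured side did not pass (SE 0.19, edgeR FDR = 0.149) unless putative unruptured replicate 14 was left out (0.42, FDR = 0.0458). Neither call for Fzd4 passed in limma on log2(TPM + 1), with an FDR of 0.129 between sides and 0.0852 between media. The difference of its side effects was 0.33 (SE 0.28, edgeR FDR = 0.530).

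Ror2, the tyrosine kinase receptor through which Wnt5a acts on the polarity branch, lies on chromosome 13 from 53109312 to 53286124 (minus strand). All 15 putative unruptured libraries had counts of it, from 5 to 27, and all 12 unruptured libraries post-hCG had from 1 to 23. On the putative ruptured side 7 of 14 libraries had none, and on the ruptured side post-hCG 9 of 13 had none, with 24 and 6 counts over the group. The median was 1.06 TPM in putative unruptured, 0.04 in putative ruptured, 0.525 in unruptured and 0 in ruptured libraries. A single putative ruptured library, replicate 12, was listed at 3.90 TPM from only 6 counts, and it was also among the libraries with oocyte markers. Ror2 did not pass the filter between sides. In edgeR without that filter, where 4.55% of all genes were lower on the putative ruptured side and 6.34% on the ruptured side, its log2FC was -2.76 without hCG (SE 0.42, FDR = 2.05e-05) and -3.70 post-hCG (SE 0.52, FDR = 1.52e-06). Between media on the unruptured side it passed the filter and fell by 0.72 (SE 0.28, edgeR FDR = 0.0312), and by 0.73 without the filter (FDR = 0.0463). The fall did not pass with all 4 groups in the fit (FDR = 0.0618).

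Prickle1, a cytoplasmic protein of the planar polarity complex on chromosome 15 from 93499114 to 93595891 (minus strand), followed a similar order of levels. It was at 0.83 to 2.94 TPM in putative unruptured libraries, with a median of 1.37, and at 0.09 to 1.65 TPM in putative ruptured libraries, with a median of 0.50, and 10 of the latter 14 lay below every putative unruptured library. Its log2FC between these sides was -1.27 (SE 0.30, edgeR FDR = 0.00255), and -1.28 without the expression filter (FDR = 0.0025). Post-hCG the medians were 0.71 TPM on the unruptured side (0.26 to 1.67) and 0.27 TPM on the ruptured side (0 to 0.55), and all 13 ruptured libraries lay below the median of the unruptured side. Between media on the unruptured side, Prickle1 was lower post-hCG, with a log2FC of -1.0 (SE 0.25, edgeR FDR = 0.00126). The other comparisons could be tested only without the expression filter, and there the log2FC was -1.40 between sides post-hCG (SE 0.33, FDR = 0.00324) and -1.13 between media on the ruptured side (SE 0.39, FDR = 0.0204), where 17.8% of all genes were lower. These rested on few counts, with a median of 4 per ruptured library (0 to 8) and of 6 per putative ruptured library (1 to 19).

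Sfrp4, a secreted Frizzled-related protein that binds Wnts outside the cell, showed the largest change of the 10 genes between media on both sides. It lies on chromosome 13 from 19623104 to 19632994 (plus strand). Without hCG it was at 1.95 to 116.87 TPM in putative unruptured libraries, with a median of 6.41, and at 2.31 to 133.61 TPM in putative ruptured libraries, with a median of 36.5. Post-hCG it was at 929 to 4013 TPM in unruptured libraries, with a median of 2260, and at 932 to 4009 TPM in ruptured libraries, with a median of 2163. Every library post-hCG lay above every library without hCG. Such separation was not limited to Sfrp4, since Wnt2, a ligand outside the 10 genes, was also separated between media on each side, in the other direction. The share of all genes so separated was not counted. Between media, 4947 of 9320 genes tested were called on the unruptured side and 5129 of 8531 on the ruptured side. The log2FC of Sfrp4 was 7.20 on the unruptured side (SE 0.58, edgeR FDR = 4.41e-12), a 147-fold rise, and 5.73 on the ruptured side (SE 0.44, edgeR FDR = 6.01e-13), a 53.2-fold rise. Putative unruptured replicate 12 held 55.2% of its group's Sfrp4 counts, and without it the log2FC on the unruptured side was 8.28 (SE 0.35, FDR = 2.29e-18). Ranked by mean TPM among all genes, Sfrp4 was number 2422 in putative unruptured, 917 in putative ruptured, 42 in unruptured and 41 in ruptured libraries. Its median share of the summed TPM of 15 genes listed as secreted inhibitors, which include the membrane proteins Kremen1, Kremen2 and Apcdd1, was 17.5%, 52.9%, 96.9% and 94.7% in the same order.

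Between sides, Sfrp4 was 3.34-fold higher on the putative ruptured side, with a log2FC of 1.74 (SE 0.56, edgeR FDR = 0.0265) and 13 of 14 libraries above the other side's median. Without putative unruptured replicate 12 the log2FC was 2.81 (FDR = 4.33e-05). Without putative ruptured replicate 9 it was 1.54 (FDR = 0.0537), and without the 5 libraries with oocyte markers it was 1.61 (FDR = 0.0722). Post-hCG the sides differed by 0.27, which did not pass (SE 0.18, edgeR FDR = 0.333), with a 95% interval from -0.10 to 0.63. The difference of the side effects, -1.47, did not pass either (SE 0.63, edgeR FDR = 0.138), although it did in limma on log2(TPM + 1), at -1.85 (FDR = 0.0418).

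Sfrp1, another Frizzled-related inhibitor, on chromosome 8 from 23411502 to 23449632 (plus strand), was low throughout, with medians of 0.45 TPM in putative unruptured, 0.105 in putative ruptured, 0.15 in unruptured and 0.13 in ruptured libraries. It had 3 to 27 counts in each putative unruptured library and 0 to 6 in each putative ruptured library, of which 9 of 14 lay below every putative unruptured library in TPM. It passed the filter in no comparison. In edgeR without the filter its log2FC was -1.89 between sides without hCG (SE 0.41, FDR = 0.00208), -1.44 between media on the unruptured side (SE 0.45, FDR = 0.0126) and -0.32 between sides post-hCG (SE 0.54, FDR = 0.770).

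Axin2, a scaffold of the beta-catenin destruction complex that is itself a target of beta-catenin and is used as a readout of the canonical branch, was highest in putative unruptured libraries. It lies on chromosome 11 from 108920349 to 108950783 (plus strand), within which the annotation places an antisense gene that the tables do not list. Its TPM and counts ranked libraries differently, and the library at 9.10 TPM held 33 counts whereas that with the most, 38, was at 2.82 TPM, so CPM is given. Axin2 was at 3.71 to 14.9 CPM in putative unruptured libraries, with a median of 9.16, and at 2.21 to 8.86 CPM in putative ruptured libraries, with a median of 4.10. Post-hCG it was at 1.05 to 4.31 CPM in unruptured libraries, with a median of 2.42, and at 0.713 to 7.34 CPM in ruptured libraries, with a median of 2.36. It was thus lower on the putative ruptured side without hCG, and the medians of the sides lay close together post-hCG.

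Between sides without hCG the log2FC of Axin2 was -1.02 (SE 0.20, edgeR FDR = 0.00042). On the unruptured side it was lower post-hCG, with a log2FC of -1.84 (SE 0.23, edgeR FDR = 5.28e-08) and 10 of 12 libraries below every putative unruptured library in TPM. It did not pass the filter in the remaining comparisons. Without the filter, edgeR gave 0.25 between sides post-hCG (SE 0.33, FDR = 0.689) and -0.56 between media on the ruptured side (SE 0.29, FDR = 0.134). The side effects differed by 1.26 (SE 0.37, edgeR FDR = 0.0224), by 1.27 without the filter (FDR = 0.0396) and by 1.28 in DESeq2 (FDR = 0.0157). The median count per library was 23 in putative unruptured libraries and 7.5, 5.5 and 5 in putative ruptured, unruptured and ruptured libraries, and Axin2 passed the filter only with the first of these groups. In limma on log2(TPM + 1), the side difference without hCG (-0.46, FDR = 0.130) and the difference of the side effects (0.37, FDR = 0.471) did not pass.

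Promoter sequence of 7 of the 10 genes was in the RefSeq table for GRCm38.p6, and the 250 bases before the start are shown for Axin2, the readout of the canonical branch, and for Fzd1 and Fzd4, the Frizzled receptors among the 10 genes. Capitals mark the TCF/LEF core CTTTGA on either strand, which 13.8% of 32851 windows of the same length held. The windows are chr11:108920099-108920348 (plus strand) for Axin2, chr5:4758217-4758466 (minus strand) for Fzd1 and chr7:89404116-89404365 (plus strand) for Fzd4. They were set by the starts of the promoter table, whereas the gene positions above come from GENCODE. The 2 sources place the start differently for some genes, Fzd1 and Fzd4 among them.
Axin2: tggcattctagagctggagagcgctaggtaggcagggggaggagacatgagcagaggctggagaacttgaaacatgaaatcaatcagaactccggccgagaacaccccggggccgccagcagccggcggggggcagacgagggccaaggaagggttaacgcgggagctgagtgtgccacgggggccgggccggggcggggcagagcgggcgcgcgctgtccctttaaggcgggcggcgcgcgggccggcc
Fzd1: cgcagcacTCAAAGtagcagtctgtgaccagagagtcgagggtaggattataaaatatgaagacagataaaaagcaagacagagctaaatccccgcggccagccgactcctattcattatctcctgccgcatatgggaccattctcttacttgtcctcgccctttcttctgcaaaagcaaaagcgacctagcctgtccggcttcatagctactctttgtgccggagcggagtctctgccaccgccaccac
Fzd4: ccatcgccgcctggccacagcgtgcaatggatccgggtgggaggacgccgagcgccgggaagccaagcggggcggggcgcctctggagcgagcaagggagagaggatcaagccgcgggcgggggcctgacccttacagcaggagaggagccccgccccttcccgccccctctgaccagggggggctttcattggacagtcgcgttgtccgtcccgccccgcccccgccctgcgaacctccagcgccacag
Fzd1 held the core once, 242 bases before the start and on the opposite strand, and neither Axin2 nor Fzd4 held it in these windows. Among the genes not shown, Wnt11 held it 50 bases before a start, and Wnt4, Ror2 and Prickle1 did not hold it. The cAMP response element TGACGTCA and the Nr5a site CAAGGTCA, which 1.55% and 1.33% of all windows held on either strand, were in none of the 3 windows shown.

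Markers of theca and stroma, the connective tissue layer around the granulosa cells, were lower on the ruptured side in both media. Without hCG, 4 of the 7 genes tested were lower there too, and Sfrp4 was higher. Post-hCG, 2 of 5 tested, Wnt5a and Wnt4, were lower, and Fzd4 was higher. Ror2 and Prickle1 were lower post-hCG only in the fit without the filter, where 6.34% of all genes were lower. In bulk samples, fewer cells of a type and less RNA per cell cannot be told apart. The summed TPM of 13 theca and stroma markers was 37.5 to 2795 in putative unruptured libraries, with a median of 539, and 6.85 to 577 in putative ruptured libraries, with a median of 43.1. Post-hCG the sum was 77.6 to 1338 in unruptured libraries, with a median of 351, and 3.84 to 55.4 in ruptured libraries, with a median of 7.51. Of these markers, 7 of 9 tested were lower on the putative ruptured side, against 8.96% of all genes. Post-hCG, 5 of 6 tested were lower on the ruptured side, against 11.3% of all genes. Cyp17a1, the enzyme of androgen synthesis that defines theca, was at 0 in all ruptured libraries, as was Aspn, while Gli1 was at 0 in all unruptured libraries. Gli1 and Aspn had means under 1 TPM in all 4 groups, and Cyp17a1 in all but the putative unruptured group. Over the 54 libraries, after subtraction of group means, Pearson's r with this sum was 0.67 for Prickle1, 0.63 for Ror2, 0.54 for Fzd1, 0.40 for Wnt5a, 0.39 for Sfrp1, 0.27 for Wnt11, 0.22 for Axin2, 0.09 for Wnt4, -0.15 for Fzd4 and -0.24 for Sfrp4, where the libraries share depth and cell makeup. Between media, 6 of 9 theca and stroma markers tested were lower post-hCG on the unruptured side, against 27.7% of all genes. There Fzd1, Ror2, Prickle1, Wnt4 and Axin2 were also lower and Wnt5a was higher. On the ruptured side 3 of 4 markers tested were lower, against 30.4% of all genes. There Wnt4 was lower and Wnt5a and Fzd4 were higher. Markers of granulosa cells summed to a median of 2629 TPM in putative unruptured and 9221 TPM in putative ruptured libraries. Of 7 tested, 6 were higher in the latter, against 8.84% of all genes. Post-hCG the median was 1389 TPM in unruptured and 1151 TPM in ruptured libraries. Of 3 tested, 1 (Nr5a2) was higher on the ruptured side, against 10% of all genes, and 2 were not called. Between media, 5 of 7 tested were lower post-hCG on either side, against 27.7% of all genes on the unruptured and 30.4% on the ruptured side. Fshr and Nr5a2 went the other way on the unruptured side, and Nr5a2 on the ruptured side. Pearson's r with the granulosa sum, computed in the same way, was -0.56 for Fzd1, -0.49 for Wnt11, -0.30 for Sfrp1, -0.28 for Ror2, -0.21 for Prickle1, -0.20 for Wnt4, -0.08 for Wnt5a, -0.01 for Axin2, 0.23 for Sfrp4 and 0.38 for Fzd4. The part of these markers in the differences of the 10 genes between sides or media was not tested.

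**Figure D3:**
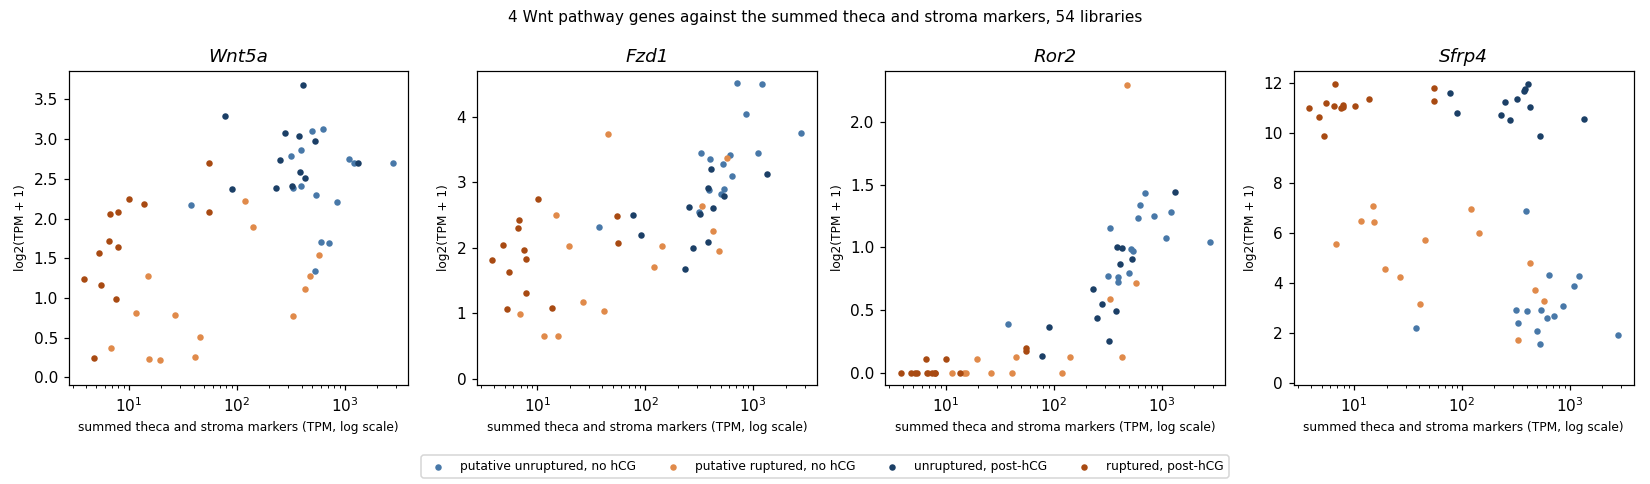
Log2(TPM + 1) of Wnt5a, Fzd1, Ror2 and Sfrp4 (y axis) against the summed TPM of 13 theca and stroma markers (x axis, log scale), with 1 point for each of 54 libraries coloured by group. Ruptured libraries post-hCG sat at up to 55.4 TPM of the markers, below all unruptured libraries at 77.6 TPM or more, and Sfrp4 was higher in every library post-hCG whatever its marker sum.

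The genes most like each of the 10 were sought among 5262 genes at a mean of at least 5 TPM, by Pearson's r of log2(TPM + 1) after subtraction of group means over the 54 libraries, which share depth and cell makeup. Sfrp4 was most like Epdr1 (r = 0.89), which lies next to it on the opposite strand with 3176 bases between the genes, followed by Tmem86a (0.84) and Prlr (0.77), the prolactin receptor. Fzd1 was most like Igfbp7 (0.78), Rdh10 (0.76) and Tpbg (0.75), and Wnt4 was most like Hacd3 (0.77), Tst (0.75) and Frmd5 (0.74). Prickle1 was most like Col1a1 (0.68), Tgfbr2 (0.66) and Col6a2 (0.66), and Ror2 was most like Sparcl1 (0.66), Lhfp (0.65) and Col3a1 (0.65), among which Col1a1 and Col3a1 are collagens of the theca and stroma list. Fzd4 was most like Gramd1b (0.65), Tfip11 (0.63) and Zfp219 (0.62), and Wnt11 was most like Fzd1 (0.64), Hmga1 (0.64) and Tnfrsf12a (0.63). For Wnt5a (Cpt1a, Lrrn1 and Smim10l1), Sfrp1 (Gas7, Igfbp4 and Saa3) and Axin2 (Lsm1, Clcc1 and Rrp36) the r of the closest gene was 0.55, 0.56 and 0.43.

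The 10 genes belong to a wider list of 104 Wnt pathway genes in 9 roles, all of which were in the tables. Without hCG, 54 were tested between sides, of which 5 were higher and 9 lower on the putative ruptured side, against 8.84% and 8.96% of all genes, with a median log2FC of -0.01. Besides Wnt5a and Fzd1, the lower genes were led by Wnt6, a ligand, at -1.98 (edgeR FDR = 0.00336), and besides Sfrp4 the higher genes were led by Tle2, a corepressor of TCF factors, at 1.01 (edgeR FDR = 0.00637) and Prickle2, a polarity gene, at 0.92 (edgeR FDR = 0.000793). Post-hCG, 44 were tested, of which 6 were higher and 4 lower on the ruptured side, against 10% and 11.3% of all genes, with a median log2FC of 0.10. Wnt6 was again lower (-2.68, edgeR FDR = 8e-07), as was Wls, which carries Wnt proteins to the cell surface (-0.67, edgeR FDR = 1.01e-05). Porcn, the enzyme that attaches the lipid to Wnt proteins (1.77, edgeR FDR = 0.000113), Sfrp2, an inhibitor of the Sfrp4 family (1.34, edgeR FDR = 6.04e-05), and Apcdd1, a membrane inhibitor (1.21, edgeR FDR = 0.000179), were higher. All 3 ligands tested were lower on the ruptured side post-hCG.

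Between media, 54 genes of the wider list were tested on the unruptured side, of which 13 rose and 24 fell post-hCG, where 25.4% of all genes rose and 27.7% fell. On the ruptured side 45 were tested, of which 18 rose and 16 fell, where 29.7% of all genes rose and 30.4% fell. The medians were -0.31 and 0.08. Among receptors and coreceptors on the unruptured side, 7 of 10 tested fell and none rose, and in the planar polarity arm 6 of 10 fell and 1 rose. On both sides Sfrp4, Porcn and Sfrp2 rose the most, with Porcn up by 3.27 on the unruptured and 5.13 on the ruptured side (edgeR FDR = 1.75e-11 and 4.98e-13) and Sfrp2 by 2.39 and 4.18 (edgeR FDR = 7.18e-09 and 8.03e-11). Wnt2, a ligand, fell by 4.36 and 5.0 (edgeR FDR = 7.99e-10 and 3.09e-12), and Fat4, a giant cadherin of the polarity system, fell by 4.30 and 4.14 (edgeR FDR = 3.17e-15 and 1.01e-15). Nkd1, an inhibitor that beta-catenin raises, fell by 3.09 on the unruptured side (edgeR FDR = 2.27e-07), and Frzb, another Frizzled-related inhibitor, fell by 5.48 on the ruptured side (edgeR FDR = 8.55e-11), where its median was listed at 0 TPM. Genes listed as beta-catenin targets did not move in a single direction. Of 5 tested on the unruptured side, Axin2, Tcf7 and Nkd1 fell and Myc rose. Of 3 tested on the ruptured side, Apcdd1 and Myc rose and 0 fell.

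Of 58 genes of the wider list tested for a difference between the side effects, 5 had a higher and 1 a lower side difference post-hCG, against 4.25% and 4.65% of all genes. Besides Axin2 the side difference was higher post-hCG for Porcn (1.86, edgeR FDR = 0.0314), Sfrp2 (1.79, edgeR FDR = 0.0119), Lgr4, a receptor for R-spondins (0.63, edgeR FDR = 0.026), and Ctnnb1, which encodes beta-catenin (0.52, edgeR FDR = 0.0227). It was lower for Frzb (-3.18, edgeR FDR = 0.0035). Without the 5 libraries with oocyte markers, 3 in place of 5 genes had a higher side difference, and 3 in place of 5 were higher between sides without hCG.

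**Figure D4:**
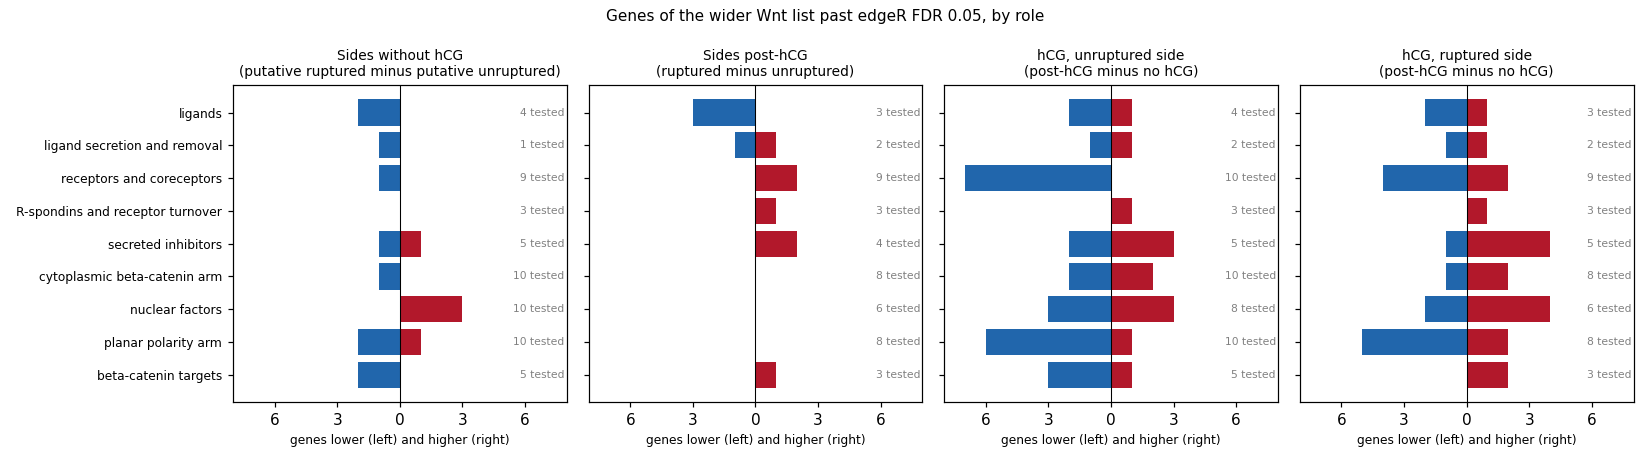
Number of genes of the wider Wnt list that were lower (left) or higher (right) at an edgeR FDR under 0.05 (x axis), by role (y axis) and comparison, with the number tested at the right of each bar. Receptors and coreceptors on the unruptured side had 7 lower and 0 higher genes between media, and Axin2, Tcf7, Apcdd1 and other genes with more than 1 role are counted under each.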

How the data were processed

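RNA of each follicle side was amplified with Smart-Seq2 and sequenced as Nextera XT libraries. HISAT2 was used by the authors for alignment to GRCm38, ComBat-seq for batches, and counts were converted to TPM. Seurat 4 stands in the submitters' processing notes. For each gene and library the authors deposited 1 estimated count, which may hold a fraction, and 1 TPM value. The counting program, the annotation and whether the tables precede the batch correction are not given in the sources used here. Whole values made up 72.2% of the non-zero counts, and all were rounded. Columns left unmatched to a sample numbered 0. TPM of the listed genes summed to 585982 to 678417 per library.

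Differences were tested with edgeR 4.0.16 (R 4.3.3, quasi-likelihood F-test, two-sided) after TMM scaling of genes that passed filterByExpr (minimum count 10, total 15), each comparison on its own groups and the interaction on all 4. SE is the log2FC divided by the square root of the F statistic, and intervals are 95% normal limits. DESeq2 1.42.0 and limma 3.58.1 on log2(TPM + 1) were alternatives, and scripts were tested on simulated data. Levels used Python 3.11.15 with pandas 2.3.3. The 10 genes, the wider list and the markers were chosen with earlier results of these data known. From the wider list, up to 3 called genes with the largest log2FC per direction and comparison with a mean of at least 1 CPM are named, and every gene called in the interaction. Single-cell data were not analysed here.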

Additional observations from a re-analysis of the deposited data

Results flagged for a closer look

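Axin2, the readout of the canonical branch, had side effects that differed between media by the test of the interaction. The log2FC between sides was 1.26 higher post-hCG than without hCG (SE 0.37, edgeR FDR = 0.0224), from -1.02 without hCG to 0.25 post-hCG, the latter from edgeR without the expression filter. The difference was 1.20 without the library with the most Axin2 (FDR = 0.0283) and 1.28 in DESeq2 (FDR = 0.0157), while without the expression filter it was 1.27 (FDR = 0.0396) and it was 0.37 in limma on log2(TPM + 1) (FDR = 0.471). Axin2 passed the filter only in fits with the putative unruptured libraries, where it was highest, and post-hCG its counts per library ran from 1 to 14. Single libraries were left out only as the highest for a gene or the highest of its lower group. The groups of 12 to 15 libraries were not otherwise searched for outlying libraries.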

How the results depend on the processing

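Of the members' test results under other settings, 296 kept their direction and their side of the FDR threshold, 22 lost and 9 gained a call, and 5 changed sign. RLE size factors changed none of 33 results. Counts of members called moved as follows. With a mean of at least 20 counts, 2 in place of 4 were lower between sides without hCG, 2 in place of 5 fell on the unruptured side, and 0 in place of 1 passed in the interaction, since fewer genes were tested. DESeq2 called 4 in place of 2 lower between sides post-hCG. limma called 0 in place of 1 higher there, 1 in place of 2 rising and 3 in place of 5 falling on the unruptured side, and 0 higher and 1 lower (Sfrp4) in the interaction. Library totals and the fit of all 4 groups each left 1 of 2 rising on the unruptured side, and the latter called 2 in place of 1 falling on the ruptured side. Without the 5 libraries with oocyte markers, a setting chosen after seeing the data, as was leaving out the highest library of the lower group, 0 in place of 1 was higher between sides without hCG. Sign changes were all in results that did not pass: Fzd1 between media on the ruptured side (0.035 with the replicate block, and from -0.17 to 0.14 with single libraries left out), Wnt4 in the interaction (-0.0053 with library totals, -0.078 in limma) and Prickle1 in the interaction (0.060 without the oocyte-marker libraries). The cause was not tested. With library totals the median log2FC of all genes was -0.14 between sides post-hCG, -0.25 and -0.33 between media on the unruptured and ruptured sides and -0.11 in the interaction. Replicate numbers did not pair the samples: same-numbered libraries had median correlations from -0.05 to 0.04, over 0.1 in 1 of 14, 2 of 12, 1 of 12 and 1 of 13 pairs, and matched their own number best in 2, 2, 2 and 1. With that number as a replicate block, 0 in place of 1 fell on the ruptured side, and 2 (Axin2 and Fzd1) in place of 1 were higher and 1 (Sfrp4) in place of 0 lower in the interaction. Of 40 level differences, 39 kept their sign with log2(TPM + 0.1) and 37 with log2 CPM. Of the 30 most alike genes, 8 remained without centring and 16 with Spearman's rho. Depth limits Wnt11, Sfrp1, Ror2, Prickle1 and Axin2, which had few counts per library.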
